A study of Mus musculus with 2 samples.

Results

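The respiratory chain passes electrons from nutrients to oxygen through complexes I to IV of the inner mitochondrial membrane, and complex V, the ATP synthase, uses the proton gradient that this builds. Genes for their subunits were taken as all rows of the count table named Nduf with a, b, c, s or v and a digit, Sdha to Sdhd, Uqcr, Cox4 to Cox8 or Atp5, plus the mitochondrial mt-Nd, mt-Co, mt-Cytb and mt-Atp genes. This rule uses names and no measured value, and it leaves out the Ndufaf assembly factors. It took 93 of 17891 genes, of which 80 lie in the nucleus and 13 in mitochondrial DNA (mtDNA). Complex I had 36 nuclear and 7 mtDNA members, complex II 4 nuclear members, complex III 8 and 1, complex IV 15 and 3, and complex V 17 and 2. Ndufa4, named after complex I, is a subunit of complex IV, and it was counted there with its paralog Ndufa4l2. A further 6 protein-coding genes that match the rule, Atp5s, Cox4i2, Cox6a2, Cox7b2, Cox8b and Cox8c, were not analysed here.

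Nuclear subunits are made on cytosolic ribosomes and imported, while mtDNA encodes membrane subunits of complexes I, III, IV and V, among them cytochrome b and the catalytic subunit of complex IV, and is transcribed as long precursors from both strands. Complex II, which also belongs to the citric acid cycle, is wholly nuclear. The corneal epithelium renews itself from a limbal rim and from dividing basal cells, whose daughters move up through wing cells to flat superficial cells. These are shed at the surface.

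Epithelium was measured by single-cell RNA sequencing with 10x Chromium 3' v3.1 chemistry in 2 libraries. All cells came from male C57BL/6J mice (7 animals, aged 10 weeks) that had both lacrimal glands (extraorbital and intraorbital) of the right side removed and were killed on day 9. The control library pooled the untreated left eyes (7), and the dry eye library pooled the right eyes (6, after 1 injured eye had been left out). The animals are thus shared, side and treatment cannot be told apart, and an effect of unilateral surgery on the left eye would not be seen. C57BL/6 mice also carry a short, unstable form of the protein of Cox7a2l, a factor that joins complexes III and IV.

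The control cells numbered 17465, with a median of 8248 unique molecular identifiers (UMIs), and the dry eye cells 16420, with a median of 9086.5. Subunit genes took 8061411 and 8810105 UMIs. The corneal keratin Krt12 stood at 21648 and 19318 CPM (UMIs scaled to a fixed library total), and the eye regulator Pax6 at 377 and 315 CPM, so the labelled tissue was found. The summed level of 6 immune markers was 7.41 and 6.82 CPM and that of 2 stromal markers 0.272 and 0.700 CPM. The epithelial mix differed between the libraries: 5 limbal markers summed to 4540 and 6321 CPM, 5 of S phase to 90.7 and 134, 5 of mitosis to 186 and 265, and 5 of corneal differentiation to 42164 and 37443. Ratios over all cells hold this difference in mix, and for the main genes values within classes or weighted to control class shares follow. Mitochondrial genes made up 1.76% of UMIs in the median control cell and 1.74% in the median dry eye cell. The libraries had 74 barcode sequences in common.

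With 1 library per group there is no replicate spread, no test and no p-value. Each ratio is dry eye over control CPM, with its exact 95% Clopper-Pearson interval in brackets, which covers counting error only. A gene was compared where both libraries together gave 100 UMIs or more and the mean level was 20 CPM or more. It was counted as lower where the ratio was at most 0.8, or higher where the inverse ratio was, with an interval that excluded 1, and this limit is called the fold below. UMIs count molecules by their 3' ends and were not divided by transcript length.

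Over all cells the subunit genes kept close to the level of control, with a single gene on either side of the fold. Ndufa4 was higher in dry eye and Sdhb, the iron-sulphur subunit of complex II, was lower, while 86 of 88 compared members lay between. Of all 4561 compared genes 15.3% passed the fold, 6.23% upwards and 9.06% downwards. The members' median ratio was 0.983, against 0.965 for all compared genes. After scaling to that median instead of the UMI total, 3 members (Ndufa4, Atp5k and Ndufc1) were higher and 0 lower, beside 7.61% and 6.42% of all genes. At a milder fold of 1.1 there were 11 higher and 15 lower members, beside 16.6% and 31.9% of all genes, and at 1.5 there were 0 and 0, beside 2.3% and 1.23%. The nuclear members summed to 24293 CPM in control and 24938 in dry eye, which gives 1.03 (1.03 to 1.03) as their ratio, and the mtDNA members to 17805 and 17617 CPM, a ratio of 0.989 (0.988 to 0.991). The 5 members below the minimum were Cox6b2, Cox7a1, Ndufa4l2, Ndufs1 and mt-Nd6.

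Ndufa4, at chromosome 6, 11900292 to 11907497 on the minus strand, rose from 1877 CPM to 2648, a ratio of 1.41 (1.4 to 1.42). The other 14 nuclear genes of complex IV together stood at 5729 and 5799 CPM, a ratio of 1.01, and with Ndufa4 the nuclear genes of complex IV summed to 7606 and 8447 CPM. Among them Cox6c, an accessory subunit, had 698 and 782 CPM (1.12, 1.11 to 1.13) and Cox4i1, which binds the regulators of the enzyme, 691 and 633 CPM (0.917, 0.910 to 0.924). Cox7a2l was at 279 and 240 CPM (0.857, 0.847 to 0.868), the lowest ratio of the nuclear complex IV genes.

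All 4 genes of complex II were lower in dry eye or level with control. Sdhb, at chromosome 4, 140961203 to 140979193, fell from 155 CPM to 123, a ratio of 0.797 (0.784 to 0.811). Sdha, the flavoprotein that holds the succinate site, had 52.6 and 43.4 CPM (0.825, 0.802 to 0.849). The membrane anchors differed from each other: Sdhd had 52.7 and 45.1 CPM (0.856, 0.832 to 0.880), and Sdhc 22.1 and 21.6 CPM (0.981, 0.940 to 1.02). Summed, complex II was at 282 and 234 CPM, a ratio of 0.828 (0.818 to 0.838), and of 0.858 (0.847 to 0.868) relative to the median gene. Sdhb no longer passed the fold after median scaling (0.826), without the starred classes described below (0.826) or with the dry eye classes weighted to their control shares (0.865), but stayed below 1 in each.

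In complex I the 6 compared nuclear core genes, which carry the flavin, the iron-sulphur clusters and the quinone site, had ratios of 0.848 to 0.998, lowest in Ndufs8 (142 and 120 CPM). The nuclear core summed to a ratio of 0.914 (0.907 to 0.921) and the 29 accessory genes to 0.967 (0.965 to 0.969). Relative to the median gene the nuclear sum of complex I was level, at 0.996 (0.994 to 0.999). Accessory genes went both ways: Ndufc1, of the membrane arm, had 190 and 230 CPM (1.21, 1.19 to 1.23), Ndufa1 150 and 167 CPM (1.11, 1.1 to 1.13), and Ndufb3 280 and 238 CPM (0.848, 0.838 to 0.859). The nuclear genes of complex III were nearly level in sum at 2454 and 2480 CPM. Among them Uqcrq, at 292 and 331 CPM, had the highest ratio (1.13, 1.12 to 1.14).

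None of the 17 nuclear genes of complex V passed the fold, and the parts of the enzyme overlapped in their ratios. The 5 small membrane subunits ran from 0.996 to 1.22, with the highest in Atp5k at 229 and 279 CPM (1.22, 1.2 to 1.23), Atp5mpl at 225 and 265 CPM (1.17, 1.16 to 1.19) and Atp5md at 299 and 348 CPM (1.16, 1.15 to 1.18), genes of the region where the enzyme forms dimers. Atp5j2 was level at 635 and 632 CPM, and Atp5l was at 1.02. The peripheral stalk summed to a ratio of 0.955 (0.95 to 0.959), with Atp5h at 712 and 649 CPM (0.912, 0.905 to 0.919). The F1 head, which makes ATP, summed to 1.02 (1.01 to 1.02), with genes from 0.953 (Atp5d) to 1.07 (Atp5b), and the c ring to 0.983 (0.977 to 0.988).

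Among the 13 mtDNA genes none passed the fold over all cells, and the ratios ran from mt-Nd2 (705 and 595 CPM, 0.844, 0.838 to 0.851) to mt-Co1 (2176 and 2478 CPM, 1.14, 1.13 to 1.14). Genes of complex I lay mostly under 1: mt-Nd1 had 758 and 719 CPM, mt-Nd4 1118 and 1015, and mt-Nd5 211 and 206, whereas mt-Nd3, with 187 CPM in each, and mt-Nd4l, with 310 and 319, were level or above. The least counted, mt-Nd6, which lies alone on the other strand, had 13.1 and 14.6 CPM. In complex IV, mt-Co2 was level at 3381 and 3365 CPM and mt-Co3 had 1975 and 2048. In complexes III and V, mt-Cytb had 2559 and 2400 CPM, mt-Atp6 4329 and 4180, and mt-Atp8 81.5 and 89.5. Summed, complex I from mtDNA was at 0.925 (0.922 to 0.928) and complex IV at 1.05 (1.05 to 1.05). Over all cells the mtDNA sum near 1 thus joined complexes that differed in direction. Of the compared classes described below, only Wing (1.11) and Squam (1.18) had a complex IV sum above 1. It was under 1 in LSC (0.864), TAC1 (0.975), TAC1* (0.811), TAC2 (0.962), Basal (0.949) and Conj (0.977). The complex I sum was under 1 in each of these classes but TAC1 (1.02).

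**Figure D1:**
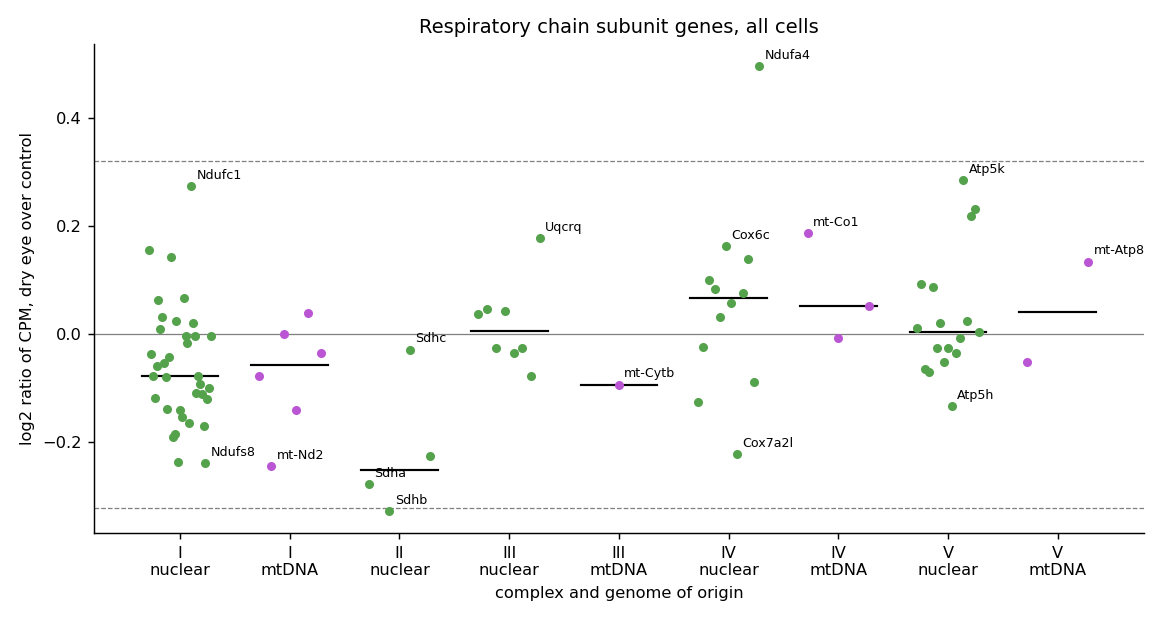
Log2 ratio of dry eye over control CPM for the 88 compared subunit genes over all cells, by complex and genome of origin. Each point is a gene, black bars are group medians and dashed lines mark the fold limit (0.8 and its inverse), which only Ndufa4 and, just beyond it, Sdhb pass.

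Promoters of these genes are known for sites of NRF1, of ETS factors such as GABP, and of YY1. Windows of 300 bases (250 before to 50 after the start, RefSeq, build GRCm38.p6) were at hand for 67 of the 80 nuclear members, with 72 windows in all. The NRF1 motif, GCGCA and GCGC with any base between them, stood in 25% of the member windows and 4.6% of all 32851 windows, searched on both strands. The ETS motif CCGGAAG was found in 23.6% and 8.86%, and the YY1 motif AAGATGGCG in 9.72% and 1.4%. A shorter hypoxia motif, ACGTG, was in 25% and 19.6%. GCATGCGC, which overlaps the NRF1 motif, was in 13.9% and 2.71%. Among the 21263 windows of protein-coding genes the shares were higher than among all windows. They were 6.38% for NRF1, 11.6% for ETS, 1.83% for YY1, 20.9% for the hypoxia motif and 3.52% for the overlapping one. The windows below belong to the gene with the highest ratio, the complex II pair with the lowest and the leading genes of complexes V and I, with matches in capitals except those of the hypoxia motif.
Ndufa4 (chr6:11907401-11907700, minus strand): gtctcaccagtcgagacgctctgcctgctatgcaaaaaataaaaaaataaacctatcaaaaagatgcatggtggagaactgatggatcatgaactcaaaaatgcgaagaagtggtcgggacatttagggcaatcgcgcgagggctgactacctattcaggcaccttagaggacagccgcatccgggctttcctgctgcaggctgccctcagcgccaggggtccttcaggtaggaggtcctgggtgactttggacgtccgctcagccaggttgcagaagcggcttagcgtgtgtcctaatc
Sdhb (chr4:140961021-140961320, plus strand): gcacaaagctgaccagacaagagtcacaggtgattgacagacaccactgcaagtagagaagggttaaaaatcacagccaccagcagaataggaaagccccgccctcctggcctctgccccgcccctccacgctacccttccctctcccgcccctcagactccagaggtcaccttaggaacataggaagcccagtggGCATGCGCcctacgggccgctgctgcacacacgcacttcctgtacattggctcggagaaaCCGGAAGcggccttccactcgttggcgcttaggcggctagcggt
Sdha (chr13:74350191-74350490, minus strand): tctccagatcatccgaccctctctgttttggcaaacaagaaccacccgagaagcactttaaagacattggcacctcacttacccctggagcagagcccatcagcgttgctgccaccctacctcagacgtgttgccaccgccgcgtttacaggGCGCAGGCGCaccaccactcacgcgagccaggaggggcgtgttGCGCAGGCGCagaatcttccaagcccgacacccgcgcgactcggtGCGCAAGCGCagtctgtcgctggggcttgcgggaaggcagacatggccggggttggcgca
Atp5k (chr5:108434350-108434649, minus strand): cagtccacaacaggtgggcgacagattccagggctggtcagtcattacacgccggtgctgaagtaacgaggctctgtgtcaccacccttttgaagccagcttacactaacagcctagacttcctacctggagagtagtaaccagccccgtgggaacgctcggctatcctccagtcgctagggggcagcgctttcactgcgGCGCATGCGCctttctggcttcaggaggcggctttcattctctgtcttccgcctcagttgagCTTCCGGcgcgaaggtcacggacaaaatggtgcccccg
Ndufc1 (chr3:51408906-51409205, minus strand): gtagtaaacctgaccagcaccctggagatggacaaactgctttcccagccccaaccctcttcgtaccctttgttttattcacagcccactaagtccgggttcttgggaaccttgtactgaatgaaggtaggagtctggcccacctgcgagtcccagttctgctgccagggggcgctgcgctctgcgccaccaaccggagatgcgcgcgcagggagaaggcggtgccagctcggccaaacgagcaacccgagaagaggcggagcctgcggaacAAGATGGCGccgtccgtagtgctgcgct
In this window Ndufa4 held no match of any of these motifs, and neither did that of Cox7a2l. Sdha held 3 NRF1 matches and one of the hypoxia motif, and Sdhb one of GCATGCGC and one of the ETS motif. Atp5k, whose ratio was above 1, also held NRF1 and ETS matches, and Ndufc1 a YY1 match. The ETS matches of Sdhb and Atp5k and the YY1 match of Ndufc1 lie after the start. Matches were found in windows of genes with ratios on both sides of 1.

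The cells were then followed by the 13 classes of the deposited annotation, named as there, of which 5 carry an asterisk that the sources used here do not explain. The starred classes held 172 control and 1793 dry eye cells, so they were nearly all from dry eye, and only TAC1* had at least 100 cells in each library. Comparisons between libraries were made in LSC, TAC1, TAC1*, TAC2, Basal, Wing, Squam and Conj. Dry eye cells had the higher median depth in each of these 8, with 4567 and 5478.5 UMIs in LSC and 9342.5 and 9518 in Squam.

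Ndufa4 was higher in dry eye in 7 of these 8 classes. It had 870 CPM in control and 1279 in dry eye in LSC (1.47, 1.38 to 1.56), 945 and 1318 in TAC1 (1.4, 1.36 to 1.43), 886 and 1450 in TAC2 (1.64, 1.60 to 1.67) and 888 and 1139 in Basal (1.28, 1.26 to 1.31). In the upper layers, where the control level was already higher, it had 1949 and 2521 CPM in Wing (1.29, 1.28 to 1.30) and 2718 and 3456 in Squam (1.27, 1.26 to 1.28). Conj cells, at 2639 and 2831 CPM (1.07, 1.06 to 1.08), did not pass the fold. The few Immune cells had 536 CPM on 19 UMIs and 720 CPM on 36.

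The largest difference was in TAC1*, with 950 CPM in the 133 control cells and 4040 CPM in the 473 dry eye cells, a ratio of 4.25 (4.03 to 4.49). The control cells of TAC1* stood level with control TAC1, so a high Ndufa4 level was not shared by both libraries' cells of that class. Cell by cell, the 10th percentile of dry eye TAC1* cells was 2304 CPM and the 90th percentile of control TAC1* cells 1593 CPM. Dry eye cells of LSC*, TAC2*, Wing* and Squam* had 2455, 4006, 4355 and 5613 CPM. Against the unstarred class of the same library these were ratios of 1.92 for LSC*, 3.07 for TAC1*, 2.76 for TAC2*, 1.73 for Wing* and 1.62 for Squam*. Starred cells made up 10.9% of dry eye cells and 14.4% of their UMIs but held 23.1% of the Ndufa4 UMIs. Without the starred classes the ratio over all cells was 1.26, and with dry eye classes weighted to control shares 1.28.

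Ndufa4 has a paralog that hypoxia is known to induce, Ndufa4l2, and a further one, AA467197, the mouse form of C15orf48, which can take its place in complex IV. Ndufa4l2, at chromosome 10, 127514967 to 127517154, had 9 UMIs in 8 control cells and 382 UMIs in 239 dry eye cells, a ratio of 39.3 (20.5 to 86.5). It reached 1.85 CPM in dry eye, and 10 cells held 20.4% of those UMIs. LSC* cells had the highest level, 43.9 CPM, and 36 of 85 of them, 42.4% (31.7 to 53.6), had a UMI at a median depth of 16145. Thinned to 3000 UMIs each, 11 of 80 dry eye LSC* cells had a UMI of it, 13.75% (7.07 to 23.3). TAC2* followed with 11.3 CPM and Wing* with 5.93. Dry eye TAC1* cells had 2.94 CPM, near unstarred TAC2 at 2.36. None of the 217 Squam* cells had a UMI, a share of up to 1.69% by the exact interval. Among 1840 dry eye Conj cells, at a median depth of 10457, none had a UMI, which allows a share of up to 0.163% by a limit of 3 counts and 0.200% by the exact interval. After thinning to 3000 UMIs per cell the shares over all cells were 0.0122% in control and 0.435% in dry eye. Without the starred classes the ratio was 17.7.

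AA467197 matches no name of the rule and was singled out after its values were seen. It belonged to the surface: Squam cells had 1041 CPM in control and 1253 in dry eye (1.2, 1.19 to 1.22), while Basal cells had 2.34 and 3.70. Dry eye Squam* cells had 2053 CPM. In Conj it stood at 135 and 152 CPM. Squam and Squam* were thus high in both Ndufa4 and this paralog. Dry eye LSC*, TAC1* and TAC2* cells, with 21, 1.64 and 6.56 CPM of AA467197, were high in Ndufa4 with far less of it. The level in LSC* was still above that of dry eye LSC, 3.28 CPM. Dry eye Wing* cells lay between, with 4355 CPM of Ndufa4 and 238 CPM of AA467197. Other tissue forms were scarce, with Cox7a1, the muscle and heart form, at 11.1 and 10.7 CPM, and Cox6b2, the testis form, at 1.27 and 1.43.

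Cox7a2l took the opposite course across the layers. It fell from 542 CPM in control Basal cells to 243 in Wing and 86.4 in Squam, and in dry eye from 496 to 200 and 86.5. In the dry eye library its ratio of starred over unstarred cells was 0.360 in LSC*, 0.705 in TAC1*, 0.755 in TAC2* and 0.725 in Wing*, and 1.02 in Squam*. In TAC1* the level was 464 CPM in control and 303 in dry eye (0.653, 0.598 to 0.715).

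**Figure D2:**
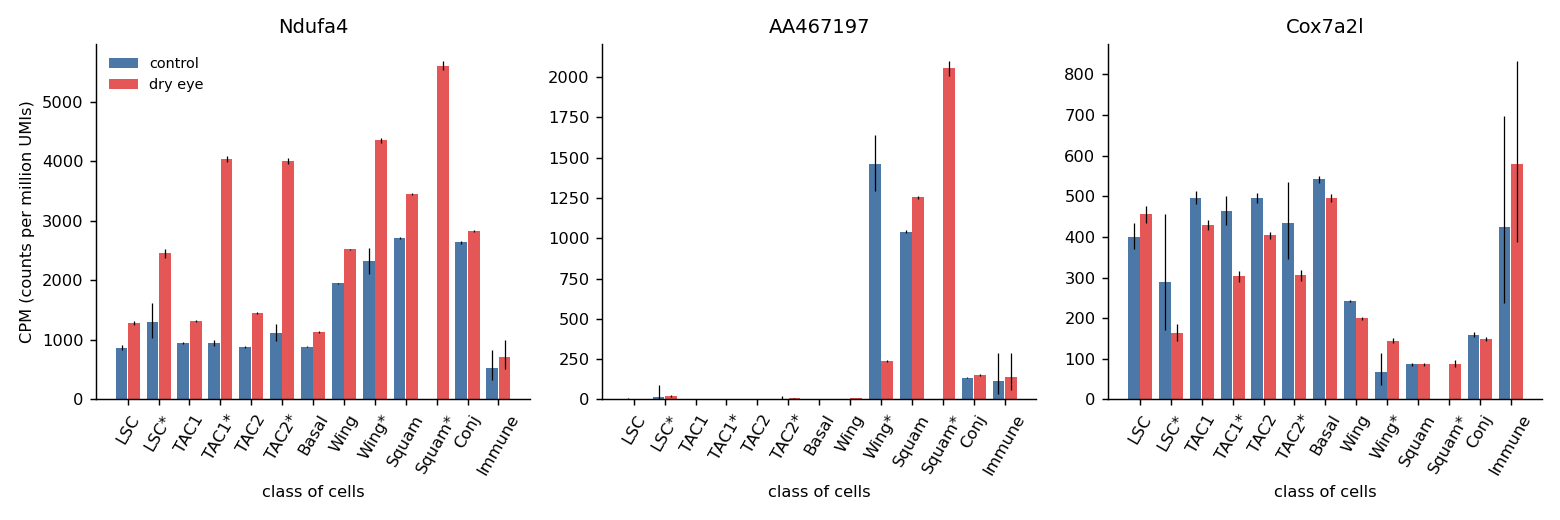
CPM of Ndufa4, AA467197 and Cox7a2l by class in control (blue) and dry eye (red), with exact 95% Poisson intervals as bars. Squam* has no control cells. Ndufa4 is at 2455 to 5613 CPM in dry eye starred cells, AA467197 stands out in Squam, Squam* and the 12 control Wing* cells, and Cox7a2l falls from Basal to Squam.

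Over the epithelium as a whole, nuclear and mtDNA subunit genes followed different courses. In control the nuclear sum was 25356 CPM in LSC, 26229 in Basal and 25206 in Wing, and 18945 in Squam. Among these 4 classes the mtDNA sum was highest in LSC, at 30479 CPM, and went down through Basal (22055) and Wing (17310) to Squam (11999). In dry eye the order of these 4 was the same, with mtDNA sums of 25393, 20931, 17854 and 12664 CPM. The few Immune cells had 29626 and 26830 CPM. The starred dry eye classes TAC1* and TAC2* had the highest nuclear sums, 31373 and 30700 CPM, beside mtDNA sums of 17821 and 17528.

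Within control, 57 of 75 compared nuclear members were lower in Squam than in Basal past the fold and 3 were higher, while 52.2% of all compared genes were lower and 32% higher. In dry eye 61 of 75 were lower and 2 higher, beside 54.8% and 32.2%. Cox4i1 had ratios of Squam over Basal of 0.303 in control and 0.307 in dry eye, Ndufb5 of 0.291 and 0.246, and Ndufa10 of 0.315 and 0.258. Sdhd, at 0.404, was at 0.282 in dry eye. Ndufa4 was the main exception, at 3.06 and 3.03, and Cox5a, an accessory subunit of complex IV, was at 1.75 and 1.31. Of the 12 compared mtDNA genes 10 were lower in control and 11 in dry eye, where mt-Co1, the catalytic subunit of complex IV, was higher (1.31) after a control ratio of 0.928.

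**Figure D3:**
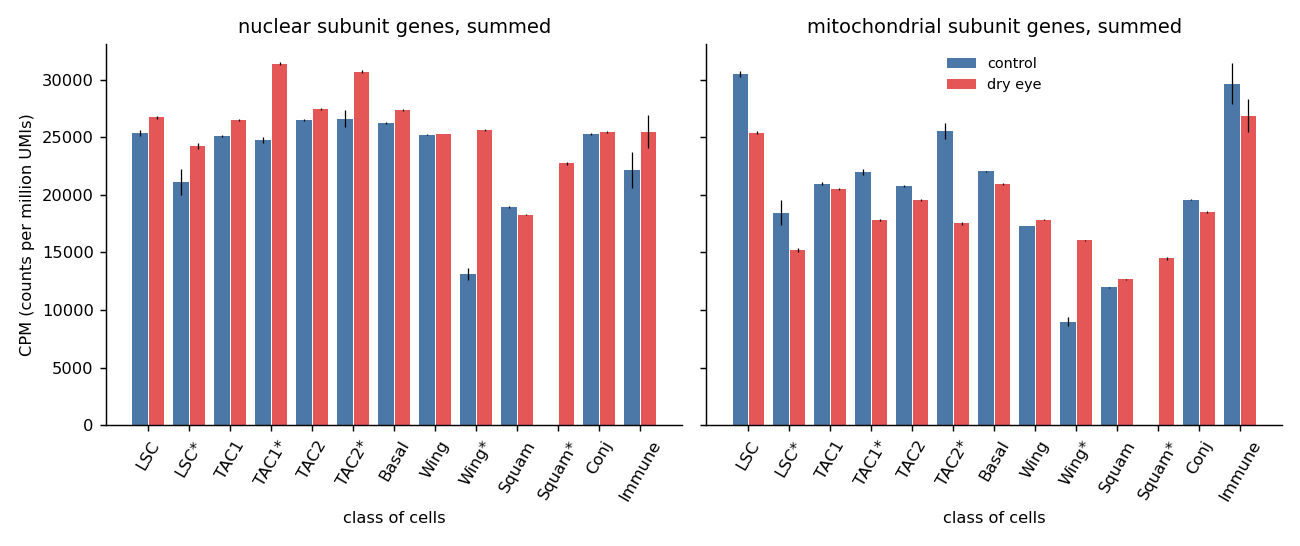
Summed CPM of the 80 nuclear (left) and 13 mtDNA (right) subunit genes by class in control (blue) and dry eye (red), with exact 95% intervals. The mtDNA sum goes from 30479 CPM in control LSC to 11999 in control Squam, while the nuclear sum is lower in Squam than in the layers beneath.

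The ratio of mtDNA over nuclear subunit UMIs was lower in dry eye in 6 of the 8 compared classes and higher in Wing and Squam. It was 1.2 in control LSC (1.19 to 1.22) and 0.951 in dry eye LSC (0.943 to 0.959), a change of 0.791. In TAC1* it went from 0.888 to 0.568 (0.640), in Basal from 0.841 to 0.765 (0.909), in TAC2 from 0.784 to 0.712 (0.909), in TAC1 from 0.837 to 0.775 (0.926) and in Conj from 0.775 to 0.727 (0.938). In Wing it went from 0.687 to 0.706 (1.03) and in Squam from 0.633 to 0.693 (1.09). The direction in all 8 was the same without Ndufa4, in cells of at least 2000 UMIs, in cells with at most 10% mitochondrial UMIs and for the median cell. Without Ndufa4 the changes were 0.802 in LSC and 0.706 in TAC1*, 0.917 in Basal and 1.15 in Squam. All 13 mtDNA genes had ratios under 1 in LSC, where the median gene was at 0.962, and in TAC1*, where it was at 1.04. These genes share long precursors, so their ratios are not independent of each other. They made up 2.96% and 2.56% of UMIs in the median control and dry eye LSC cell, and 2.16% and 1.75% in TAC1*. The part of cell damage in these shares was not tested. In LSC the dry eye cells had more of the nuclear sum (1.05, 1.04 to 1.07) and less of the mtDNA sum (0.833, 0.824 to 0.842).

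In LSC the 3 mtDNA genes past the fold were of complex I: mt-Nd1 had 1247 and 934 CPM (0.749, 0.709 to 0.792), mt-Nd2 985 and 749 (0.761, 0.715 to 0.809) and mt-Nd3 405 and 295 (0.729, 0.661 to 0.804). For mt-Cytb, the core of complex III, the levels were 4109 and 3330 CPM (0.811, 0.787 to 0.835), and for mt-Co1 3705 and 3495 (0.943, 0.915 to 0.973). In Squam the mtDNA genes parted: mt-Co1 had 1922 and 2587 CPM (1.35, 1.33 to 1.36) and mt-Atp8, a small part of ATP synthase, 43.0 and 57.5 (1.34), while mt-Nd2 had 542 and 366 (0.675, 0.660 to 0.691). Wing cells had the same 2 ends, with mt-Co1 at 2064 and 2518 CPM (1.22, 1.21 to 1.23) and mt-Nd2 at 663 and 568 (0.857, 0.846 to 0.869), short of the fold. In Basal mt-Co1 was at 0.953 and mt-Nd2 at 0.967. By complex, the mtDNA genes of complex IV summed to a ratio of 1.18 (1.18 to 1.19) in Squam and those of complex I to 0.847 (0.838 to 0.855). Reads of mt-Atp8 and mt-Atp6, and of mt-Nd4l and mt-Nd4, come from shared transcripts with overlapping genes, so these pairs are not well separated. All 31-base words in the last 300 bases of mt-Co1 are also in the pseudogene Gm29216, which was not analysed here, and the counting could split reads between them.

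**Figure D4:**
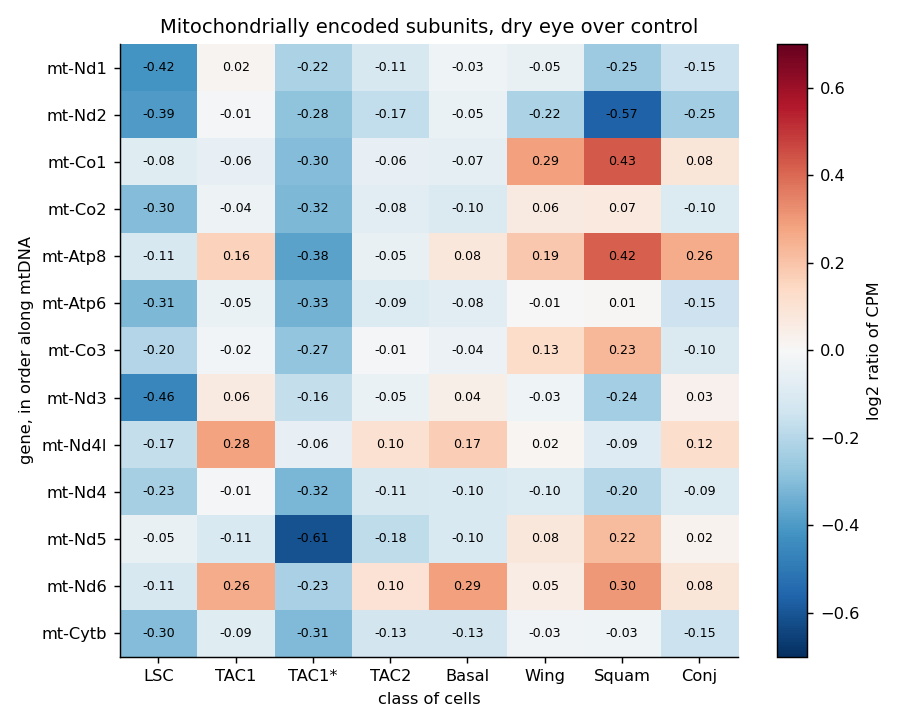
Log2 ratio of dry eye over control CPM for the 13 mtDNA genes, ordered along mtDNA, in the 8 compared classes. Blue is lower and red higher in dry eye, with all 13 below 0 in LSC and TAC1*, and mt-Co1 and mt-Atp8 above 0 but mt-Nd2 below it in Squam.

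Counted gene by gene, the 8 classes held 33 higher and 27 lower values of subunit genes, and most lay in TAC1* and Squam, the classes in which other genes differed most too. In LSC 4 of 90 compared members were higher (Ndufa4, Atp5md, Atp5mpl and, on 39 and 162 UMIs, Ndufs1) and 4 lower, against 4.57% and 12% of all genes. TAC1 had 2 higher and 0 lower (3.47% and 3.63%), TAC2 1 and 0 (3.84% and 6.85%), Basal 3 and 0 (1.99% and 3.22%) and Conj 0 of 88 either way (2% and 1.73%). Atp5k was one of those in TAC1 (217 and 295 CPM, 1.36, 1.28 to 1.44) and, with Ndufc1, in Basal. In TAC1* 19 of 90 were higher and 4 lower, against 22.4% and 18.2%. After scaling to the median gene these were 9 and 11, of which 9 of the 11 were mtDNA genes, beside 18.9% and 20.8%. Behind Ndufa4 came Ndufc1, at 184 and 368 CPM (2.0, 1.76 to 2.28), Uqcrq at 305 and 476 (1.56, 1.41 to 1.73) and Atp5k at 236 and 355 (1.5, 1.34 to 1.69). The same scaling gave 8 higher and 4 lower in LSC, beside 6% and 9.46%, and 2 and 0 in TAC2, beside 4.68% and 5.35%. The counts in TAC1 (3.03% and 4.16%), Basal (2.3% and 2.79%) and Conj (2.37% and 1.3%) stayed at their numbers. Without TAC1* the remaining classes held 14 of the 33 higher values. Joining each of these remaining classes with any starred class of its name gave 20. The share of all genes was not taken for the joined classes, so this rise cannot be set against it.

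In Squam 17 of 87 compared members were lower and 3 higher, against 21.8% and 7.71% of all genes, so the count lower was near that of the table. Here the median gene itself was at 0.928 (-0.11 on the log2 scale) and that of the nuclear members at 0.877. After scaling to the median gene 6 members were lower and 6 higher, beside 11.8% and 13.4%. Complex II stood lowest. Sdhd had 27.2 and 15.9 CPM (0.587, 0.527 to 0.652), Sdhb 98.5 and 69.8 (0.708, 0.672 to 0.746) and Sdha 28 and 21.8 (0.778, 0.706 to 0.856). The sum of complex II was at 0.711 (0.683 to 0.741), or 0.767 (0.737 to 0.798) of the median gene. The other genes past the fold were 13 of complexes I and V and mt-Nd2, among them Ndufs8 (105 and 72.7 CPM, 0.693, 0.659 to 0.730), Atp5g1 of the c ring (188 and 131 CPM, 0.695, 0.669 to 0.722) and Ndufa7 (101 and 72.2 CPM, 0.712, 0.676 to 0.749).

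In Wing 1 of 88 was higher and 2 were lower, against 4.32% and 9.55% of all genes. Both of the lower genes were of complex II, Sdhd at 52.7 and 40.5 CPM (0.769, 0.732 to 0.808) and Sdha at 59.7 and 46.3 (0.776, 0.741 to 0.812). With the median gene at 0.931, scaling to it gave 5 higher and 0 lower, beside 7.24% and 3.88%, and Sdhd was then at 0.826. The sum of complex II was under 1 in 7 of the 8 classes, with intervals that excluded 1 in all of these but LSC (0.911, 0.817 to 1.02), and in TAC1* it was 1.07 (0.959 to 1.2). Relative to the median gene it was 0.892 in Wing, 0.909 in Basal, 0.894 in TAC2, 0.932 in TAC1 and 0.932 in Conj.

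**Figure D5:**
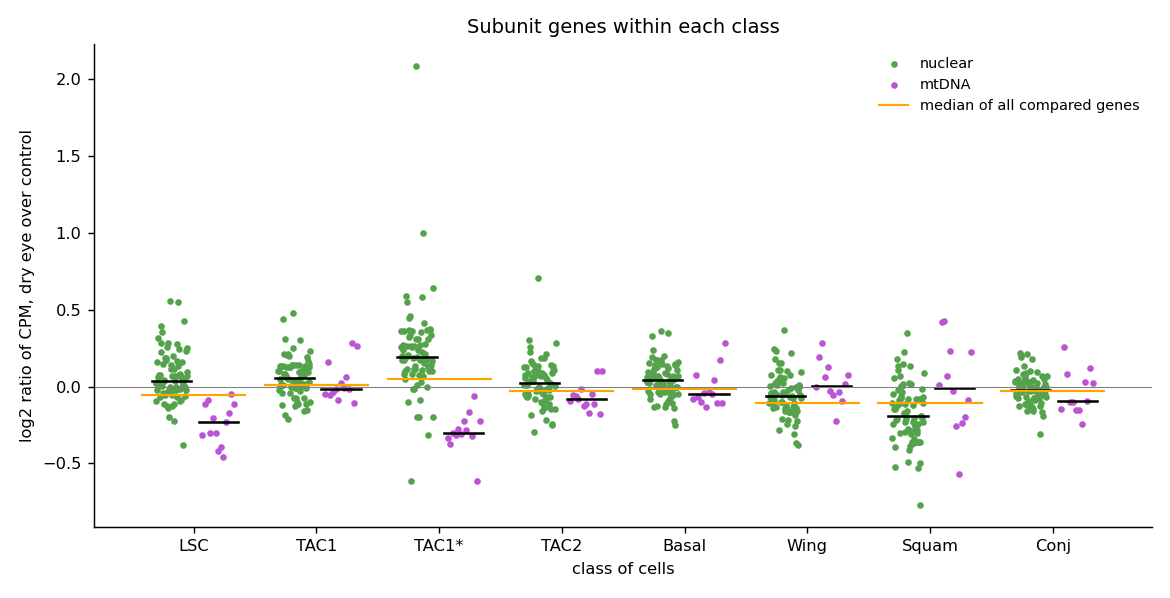
Log2 ratio of dry eye over control CPM for each compared subunit gene in 8 classes, nuclear (green) and mtDNA (purple). Black bars are medians of the points, orange bars the median of all compared genes of the class. The mtDNA median lies under the nuclear one in all classes but Wing and Squam, the uppermost point in TAC1* is Ndufa4 at 4.25-fold, and the lowest in Squam is Sdhd.

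Starred dry eye cells were also set against the unstarred cells of the same library, which is a description within 1 library. In LSC* 45 of 89 compared members were lower than in LSC and 5 higher, against 32.1% and 30.3% of all genes, and the mtDNA sum was at 0.598 (0.590 to 0.607). TAC1* had 9 higher and 3 lower of 90 (24.6% and 12.7%), TAC2* 2 and 2 of 89 (16.4% and 23.5%), and Wing* 1 and 13 of 88 (18.1% and 19.6%). In Squam* 31 of 86 were higher and 1, Sdhb, was lower, against 41.3% and 16.3%. Sdhb was at 0.524 (0.490 to 0.560) in Wing*, 0.725 (0.620 to 0.842) in Squam*, 0.723 (0.594 to 0.875) in LSC*, and 0.933 and 0.978 in TAC1* and TAC2*. Ndufa4 was higher in all 5. The starred cells were deeper than the unstarred ones, with medians of 16145 against 5478.5 UMIs in LSC* and 17483.5 against 11815 in Wing*, and the part of depth in these ratios was not tested.

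Other mitochondrial genes were taken as lists over all cells, where 6.23% of all compared genes were higher and 9.06% lower. Of 18 compared assembly factors 0 passed the fold (median ratio 0.947), with Uqcc2, for complex III, at 227 and 273 CPM (1.21, 1.19 to 1.22) and Ndufaf3, for complex I, at 42 and 34.5 (0.821, 0.796 to 0.848). None passed among 6 electron carriers and further subunits (0.937), where cytochrome c, Cycs, had 97.8 and 114 CPM (1.17, 1.14 to 1.19) and the electron transfer subunit Etfb 196 and 165 (0.843, 0.831 to 0.856). Of 60 mitochondrial ribosomal proteins 1 was higher, Mrpl33 at 140 and 187 CPM (1.34, 1.32 to 1.36), with a median of 0.988. No gene passed among 15 import genes (0.987), 11 of the citric acid cycle (0.999) and 5 stress proteins (1.02). Nor did any in 2 short sets, 2 compared of 20 genes of mtDNA and its RNA (1.04) and 2 compared of 9 regulators (0.955). Of the stress proteins, the chaperonins Hspd1 and Hspe1 were at 1.17 and 1.16. Tfam, which packages mtDNA, had 17.8 and 17.5 CPM, under the minimum. Regulators under it went both ways, with Ppargc1a at 0.815 and 0.338 CPM (0.415, 0.308 to 0.554) and Pprc1 at 2.43 and 3.87 (1.60, 1.42 to 1.79). So did import genes under it, with Timm8a1 at 1.57 (1.49 to 1.66) and Tomm34 at 0.849 (0.809 to 0.890).

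Of the hypoxia-linked list 3 genes were compared: Higd1a, a factor of complex IV, was higher at 112 and 151 CPM (1.36, 1.33 to 1.38), Egln3, an oxygen sensor, lower at 327 and 259 (0.793, 0.784 to 0.802), and Bnip3l at 0.927. Within classes Egln3 was short of the fold in Wing (0.931), Basal (0.898), TAC2 (0.926), TAC1 (0.856), Conj (0.844) and Squam (0.820). Past the fold, Egln3 was lower in LSC (0.519) and TAC1* (0.442). Higd1a was higher past the fold in TAC1* (1.67), TAC2 (1.48) and, only just, Wing (139 and 175 CPM). Higd1a was short of the fold in LSC (1.14), TAC1 (1.08), Basal (1.17), Squam (1.03) and Conj (1.05). Bnip3, a receptor for mitophagy below the minimum, had 79 UMIs in control and 1110 in dry eye (0.413 and 5.36 CPM). Also below the minimum, Vegfa had 1.12 and 3.11 CPM, Car9 0.188 and 0.357, and Pdk1, a kinase that holds back entry into the citric acid cycle, 21.7 and 17.6 (0.811, 0.776 to 0.848). In dry eye LSC* cells Higd1a stood at 652 CPM and Bnip3 at 122, against 73.1 and 6.32 in LSC, so these cells, highest in Ndufa4l2, were high in both, while Pdk1 stood at 21.02 CPM in LSC* and 22.5 in LSC. Egln3 was at 190 CPM in dry eye LSC* and 76.6 in dry eye LSC, beside 148 in control LSC. Vegfa had 19.8 CPM in dry eye LSC* and 6.09 in dry eye LSC. Without the starred classes 1 list gene was higher and 0 were lower.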

How the data were processed

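Corneal epithelial cells of 1 control and 1 dry eye library were counted by the authors, and the deposited table holds whole-number counts of UMIs per gene and cell, beside a deposited table of each cell's library and class. Cell Ranger 6.0.1, Seurat 4 and build mm10 are named, without role or order, per the submitters' processing notes. Filters on cells and genes, and the treatment of doublets, are not given in the sources used here. No doublet caller was run, and leaving out the 5% deepest cells was tried instead.

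UMIs were summed per gene, library and class and divided by that library's or class's total (CPM), with Python 3.11.15, numpy 2.4.6, scipy 1.17.1, pandas 2.3.3 and matplotlib 3.10.9. Levels have exact Poisson intervals and ratios exact Clopper-Pearson intervals at 95%, which cover counting error only: UMIs of 1 library are not replicates, and neither are cells. Depth was 191493194 UMIs in control and 207030777 in dry eye, so that 1 UMI was worth 0.00522 and 0.00483 CPM. On simulated counts for the 4561 genes compared over all cells, the interval held the true ratio for 94.9% of unchanged genes. That ratio was rescaled to the simulated total, so it was not set to exactly 1. All genes changed by 1.4-fold were called. Thinning to 3000 UMIs left out 1094 control and 784 dry eye cells. Gene positions are from GENCODE M21 (mm10). A count of 0 was given the limit of 3 counts.

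The members and the other lists were chosen with earlier results of these data known. Named were the extreme and the most abundant members of each complex and genome of origin, all mtDNA genes, all paralogs, the 2 highest and 2 lowest members per class, and the 2 highest and 2 lowest genes of each list. AA467197 and the other genes named outside this rule were chosen after their values were seen. Alternatives were other scalings, folds, filters on cells and weightings of classes. Leaving out TAC1* and taking Ndufa4 out of the nuclear sum were added after seeing the data.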

Additional observations from a re-analysis of the deposited data

Results flagged for a closer look

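Some ratios of dry eye over control went in opposite directions in different classes, and none of these differences was tested, since each class has 1 library per group. Sdhd was at 1.30 in TAC1* but at 0.769 in Wing and 0.587 in Squam. Atp5g1, a gene for the c ring of ATP synthase, was at 1.29 in TAC1* and 0.695 in Squam, and Ndufs8, of the complex I core, at 1.29 and 0.693. The mtDNA gene mt-Atp8 went the other way, at 0.771 in TAC1* and 1.34 in Squam.

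The change in the ratio of mtDNA over nuclear subunit UMIs also differed in direction. It was 0.791 in LSC, 0.926 in TAC1, 0.640 in TAC1*, 0.909 in TAC2, 0.909 in Basal and 0.938 in Conj, but 1.03 in Wing and 1.09 in Squam. The difference between these classes was not tested.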

How the results depend on the processing

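No paired analysis was possible because each group has 1 library and the labels carry no replicate numbers. Over all cells, the single higher member became 3 with median-of-ratios scaling, 2 without the CPM minimum, 11 at a fold of 1.1 and 0 at 1.5, beside 16.6% and 2.3% of all genes at these folds. The single lower member became 0 with median-of-ratios scaling, without the starred classes, with control class shares and at a fold of 1.5 (1.23% of all genes), and 15 at 1.1 (31.9%). Genes of the other lists went from 2 higher and 1 lower to 16 and 18 at a fold of 1.1 and to 1 and 0 without the starred classes. The 33 higher values over members and classes became 14 without TAC1*. In these same unstarred classes there were 20 once starred classes were joined to them, with no share of all genes taken for that joining. Of the paralogs 2 were higher by CPM and 1 by share of cells after thinning. No value changed sides of 1 while past the fold. The 6 classes with a lower mtDNA over nuclear ratio stayed 6 in each alternative run. The cause of these shifts was not tested, apart from the folds and left-out cells themselves. Low depth limits Ndufa4l2, Ndufs1, Cox6b2 and mt-Nd6, and LSC and TAC1* rest on 267 and 133 control cells. Library, eye side and treatment cannot be told apart.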

Other observations

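Nuclear subunit genes with a longer annotated length had lower ratios over all cells, though not in every length bin. Length was the median over a gene's annotated protein-coding transcripts, which need not be the length of the transcript expressed here. By this measure Uqcrc1 had 533 bases and Ndufb2 2413. Across the 75 compared members with a length, Spearman's rho of ratio on length was -0.45 and Pearson's r -0.39, while over 4409 other nuclear genes rho was -0.092. Genes share libraries and are no independent replicates, so these are descriptions. The 40 members under 700 bases had a median ratio of 1.02, the 16 of 700 to 1000 bases 0.919 and the 16 of 1000 to 2000 bases 0.966, against 0.995, 0.963 and 0.969 for other genes of these lengths. The 3 members of 2000 bases or more went against this order, at 1.01 beside 0.956 for other genes. In Squam the 4 bins had 0.922, 0.814, 0.852 and 0.795 among members and 0.933, 0.897, 0.918 and 0.946 among other genes.

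The 12 control Wing* cells had 1461 CPM of AA467197 on 283 UMIs, found in 11 of them, whereas 446 dry eye Wing* cells had 238 CPM and unstarred Wing cells 3.50 and 10.5. Their nuclear subunit sum, 13116 CPM, was under that of every other class in either library.

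For 12 of the 93 members at least 50% of the 31-base words in their last 300 bases also occur in 1 other annotated gene, so their counts may be uncertain: Ndufs3, Ndufs5, Atp5l, Atp5h, Cox7c, Atp5g2, mt-Co1, mt-Co2, mt-Atp6, mt-Co3, mt-Nd3 and mt-Nd4l. Those other genes were not analysed here.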
